A study of Mus musculus with 12 samples.

Results

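Distal sites with H3K4me3 and H3K27ac were taken as H3K4me3 peaks on chromosomes 1 to 19 that lay more than 3 kb from both ends of every protein-coding RefSeq gene, overlapped an H3K27ac peak shorter than 10000 bp and overlapped no H3K27me3 peak. The rule used positions only, and it found 18156 sites among 58548 H3K4me3 peaks (31.0%), which is 47.0% of the 38659 H3K4me3 peaks that far from gene ends. The peaks came from mouse intestinal organoids, which are cultures grown in Matrigel from isolated crypts, and were mapped by CUT&RUN, where a nuclease tethered to an antibody cuts out the DNA next to a histone mark. Treatment was with vehicle or, at 25 µM and for 6 days, with arachidonic acid (AA), the omega-6 fatty acid from which prostaglandins are made. Each of 3 marks had 2 vehicle and 2 AA libraries, which makes 12. All groups shared a medium with EGF, Noggin, R-spondin, the GSK3 inhibitor CHIR-99021 and the ROCK inhibitor Y-27632. The labels of these libraries name no genotype. The design text speaks of Ptger knockout organoids and of a PGE2 arm, neither of which a library used here carries in its label, so the genotype is not known and no PGE2 library was analysed here. Whether libraries of one group stem from separate cultures is not stated, and the p-values measure the spread among these libraries alone, which could be technical.

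H3K4me3 is written by SET1 and MLL methyltransferase complexes and marks the starts of active genes, while H3K27ac is written by the acetyltransferases p300 and CBP and marks active promoters and enhancers. Most enhancers carry H3K4me1 with little H3K4me3, so a peak of both marks away from gene ends can be an internal promoter of a gene, the start of a long non-coding RNA, or an active enhancer. In the intestinal epithelium such sites are bound by factors such as CDX2 and the HNF4 proteins and lie around genes of the crypt and the villus.

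The values are peak scores, a coverage averaged over the peak and scaled by 1 factor per library, and they have no unit beyond that. A change is AA minus vehicle on log2(score + pseudocount), fitted with limma over all peaks of a mark, and a site is called where the adjusted p is under 0.05. With 2 libraries per group, limma takes the spread of a peak in part from other peaks of like score. The SE and p-value of a site therefore do not give the spread of its own libraries alone. For H3K4me3 the median peak had an unscaled coverage of 3.38 in vehicle replicate 1, 2.35 in vehicle replicate 2, 1.37 in AA replicate 1 and 1.46 in AA replicate 2, so AA was the shallower group, while the H3K27ac libraries ran from 1.95 to 2.76 without such a gap. The tissue label fitted the marks: all 12 epithelial marker genes checked had an H3K4me3 peak within 1 kb of a gene end, at a median score of 0.988, against 3 of 8 fibroblast markers (median 0.330), 2 of 6 blood markers (0.230), 2 of 4 endothelial markers and 2 of 4 markers of glia and neurons.

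The sites were short, with a median length of 1484 bp, and their median distance to a protein-coding gene end was 21.2 kb. In all 10314 of them (56.8%) lay inside the body of a protein-coding gene, and 2123 (11.7%) were more than 100 kb from any gene end. They overlapped 16621 H3K27ac peaks, and 11085 sites (61.1%) lay wholly inside one. Each site was assigned to the gene it lies in or to the nearest gene end, which gave 6544 genes; this names a neighbour and not a target. Transcript starts were looked up for all sites but the 638 on chromosome 18.

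A start of a RefSeq transcript fell in 969 sites, of which 425 held a start of a protein-coding gene and 544 a start of a long non-coding RNA only, and 16549 sites held no start. The 514 coding starts belonged to 405 genes and lay at a median of 17.1 kb from the 5′ end of their gene, so they are starts of shorter transcripts inside longer genes. In the 300 bases around them (250 before and 50 after) the median GC content was 58.2%, and the ratio of observed to expected CpG was 0.61. Starts of long non-coding RNAs at the sites had 50.3% GC and a ratio of 0.28. The 12971 starts under H3K4me3 peaks at gene ends stood at 61.7% and 0.77, and all 31365 starts of the table at 53.0% and 0.39.

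The following stretches are the 250 bases before the internal starts of the 4 sites of this kind with the largest rise and the 4 with the largest fall of H3K4me3 among those called, from RefSeq (GRCm38.p6, the same sequence build as mm10). Capitals mark matches, on either strand, to short motifs of factors of the intestinal epithelium, which are spelled out after the sequences. The rises were in Spats2l (chr1:57845321-57845570, plus strand), a gene of a cytoplasmic stress-granule protein, Capg (chr6:72549397-72549646, plus), which encodes an actin-capping protein, Mgat4c (chr10:102374187-102374436, plus), a glycosyltransferase gene, and Il33 (chr19:29945540-29945789, plus), which encodes an alarmin cytokine of epithelial cells. The falls were in Prlr (chr15:10223656-10223905, plus), the prolactin receptor gene, Akr1c14 (chr13:4059341-4059590, plus), an aldo-keto reductase gene, Camk1d (chr2:5676047-5676296, minus), a calcium/calmodulin-dependent kinase gene, and Sec14l1 (chr11:117135758-117136007, plus), which encodes a protein with a lipid-binding domain.
Spats2l: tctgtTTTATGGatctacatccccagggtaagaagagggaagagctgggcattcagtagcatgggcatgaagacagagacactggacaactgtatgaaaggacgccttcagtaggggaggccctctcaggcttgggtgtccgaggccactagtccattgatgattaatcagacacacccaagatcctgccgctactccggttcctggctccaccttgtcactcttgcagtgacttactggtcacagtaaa
Capg: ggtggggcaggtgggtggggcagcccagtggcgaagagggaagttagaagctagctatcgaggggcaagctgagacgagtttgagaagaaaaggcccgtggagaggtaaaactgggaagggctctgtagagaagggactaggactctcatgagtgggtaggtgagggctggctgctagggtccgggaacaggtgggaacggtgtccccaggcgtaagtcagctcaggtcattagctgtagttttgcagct
Mgat4c: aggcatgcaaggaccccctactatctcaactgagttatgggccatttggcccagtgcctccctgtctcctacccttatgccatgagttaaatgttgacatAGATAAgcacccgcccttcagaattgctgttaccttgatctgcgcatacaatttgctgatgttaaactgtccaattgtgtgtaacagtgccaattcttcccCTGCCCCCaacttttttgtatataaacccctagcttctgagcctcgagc
Il33: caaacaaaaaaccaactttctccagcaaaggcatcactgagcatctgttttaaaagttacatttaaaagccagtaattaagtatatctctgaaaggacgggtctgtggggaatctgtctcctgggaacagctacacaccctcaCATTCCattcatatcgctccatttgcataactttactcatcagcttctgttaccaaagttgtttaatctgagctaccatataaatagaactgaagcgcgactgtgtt
Prlr: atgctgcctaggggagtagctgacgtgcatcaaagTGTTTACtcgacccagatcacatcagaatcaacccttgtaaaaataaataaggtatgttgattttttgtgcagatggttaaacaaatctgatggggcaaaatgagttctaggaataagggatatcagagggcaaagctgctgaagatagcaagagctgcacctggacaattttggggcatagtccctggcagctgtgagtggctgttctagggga
Akr1c14: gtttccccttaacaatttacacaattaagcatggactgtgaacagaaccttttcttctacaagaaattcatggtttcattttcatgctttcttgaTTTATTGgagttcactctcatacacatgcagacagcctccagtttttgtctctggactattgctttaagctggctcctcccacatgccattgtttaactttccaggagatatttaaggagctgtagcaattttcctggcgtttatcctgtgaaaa
Camk1d: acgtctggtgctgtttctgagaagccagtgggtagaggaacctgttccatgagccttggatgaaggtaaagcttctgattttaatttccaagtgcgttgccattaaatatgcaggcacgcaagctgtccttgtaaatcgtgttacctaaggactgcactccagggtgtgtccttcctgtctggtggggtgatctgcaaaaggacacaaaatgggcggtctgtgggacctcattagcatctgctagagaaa
Sec14l1: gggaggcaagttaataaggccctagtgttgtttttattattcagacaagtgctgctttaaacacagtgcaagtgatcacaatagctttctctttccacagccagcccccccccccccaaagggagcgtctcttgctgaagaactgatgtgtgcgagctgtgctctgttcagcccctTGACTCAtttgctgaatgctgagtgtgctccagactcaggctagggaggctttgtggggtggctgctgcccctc
The capitals are a CDX match in Spats2l and Akr1c14, GATA and CTCF matches in Mgat4c, a TEAD match in Il33, a FOXA match in Prlr and an AP-1 match in Sec14l1, while the stretches of Capg and Camk1d held none.

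Such matches are common among all 31365 starts of the table, each with a window of 300 bases read on both strands. The CDX motif (TTTATNG) was in 10.9% of these windows. The GATA motif, searched as AGATAA, was in 11.2% of them, and the TEAD motif was found in 14.6% when read as GGAATG. For FOXA the letters were TGTTTAC, present in 3.71% of all windows and in 3.50% of those of coding starts at the sites. The AP-1 motif with the letters TGANTCA was present in 7.85% of all windows, in 7.59% at coding starts of the sites and in 4.63% at the starts under gene-end peaks. For CTCF, searched as GGNGGCAG, the share was 12.7% of all windows, 18.7% at coding starts of the sites and 15.9% at the starts under gene-end peaks. The others searched had no match in the 8 stretches. For HNF4, a nuclear receptor of enterocytes, these were CAAGGTCA, in 1.54% of all windows, and a longer form, CAAAGTCCA, in 0.488%. The KLF motif was read as GGGNGTGG and was present in 17.7%. The RUNX motif, read as TGTGGT, was in 16.7%, and for the ETS family the letters CCGGAAG were in 9.0%. None of the motifs spelled out here contains another.

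The sites also held 29 microRNA hairpins, in 23 sites, which shows where this rule meets regulatory RNA genes that are not protein coding. The mature forms of the best-known ones, from RefSeq with the seed (bases 2 to 8) in capitals, are these.
mmu-let-7i-5p: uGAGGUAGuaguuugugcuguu
mmu-miR-22-3p: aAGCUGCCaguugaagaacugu
mmu-miR-194-5p: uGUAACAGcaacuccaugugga
mmu-miR-215-5p: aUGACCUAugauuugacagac
mmu-miR-17-5p: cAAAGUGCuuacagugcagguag
mmu-miR-20a-5p: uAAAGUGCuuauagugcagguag
mmu-miR-19a-3p: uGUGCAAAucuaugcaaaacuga
mmu-miR-19b-3p: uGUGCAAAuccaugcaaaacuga
MiR-17 and miR-20a share a seed, as do miR-19a and miR-19b, and these 4 come from the same transcript, Mir17hg, whose site at chr14:115041855-115045536 had a mean H3K4me3 score of 0.660. The site of miR-194-1 and miR-215, a pair abundant in intestinal epithelium, spans chr1:185307029-185315855 and had a mean of 0.703. The let-7i site (chr10:122982840-122989009) was stronger, at 1.15, and the miR-22 site (chr11:75458940-75464050) stood at 0.910. None of the 23 sites was called by limma in either mark, beside 2.92% of all H3K4me3 peaks and 0.2% of all H3K27ac peaks. At the let-7i site the change in H3K4me3 was 0.30 ± 0.14 (SE, limma adjusted p = 0.223), and at the miR-194-1 and miR-215 site 0.07 ± 0.18 (limma adjusted p = 0.865).

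The classes of sites differed in the level of H3K4me3 more than in that of H3K27ac. The median H3K4me3 score over all sites was 0.165, above the 0.151 of all H3K4me3 peaks and far below the 0.630 of the 14038 peaks within 1 kb of a gene end. Sites with a coding start had a median of 0.714, those with a start of a long non-coding RNA 0.279 and those without a start 0.160. For H3K27ac the sites (median 0.222 over their peaks) were nearer to the gene-end peaks (0.263), and the 24413 distal H3K27ac peaks with neither other mark were lower, at 0.143. Across sites the 2 scores had a Spearman correlation of 0.52, which is a description over 18156 sites that share the same cells and regions of open chromatin.

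**Figure D1:**
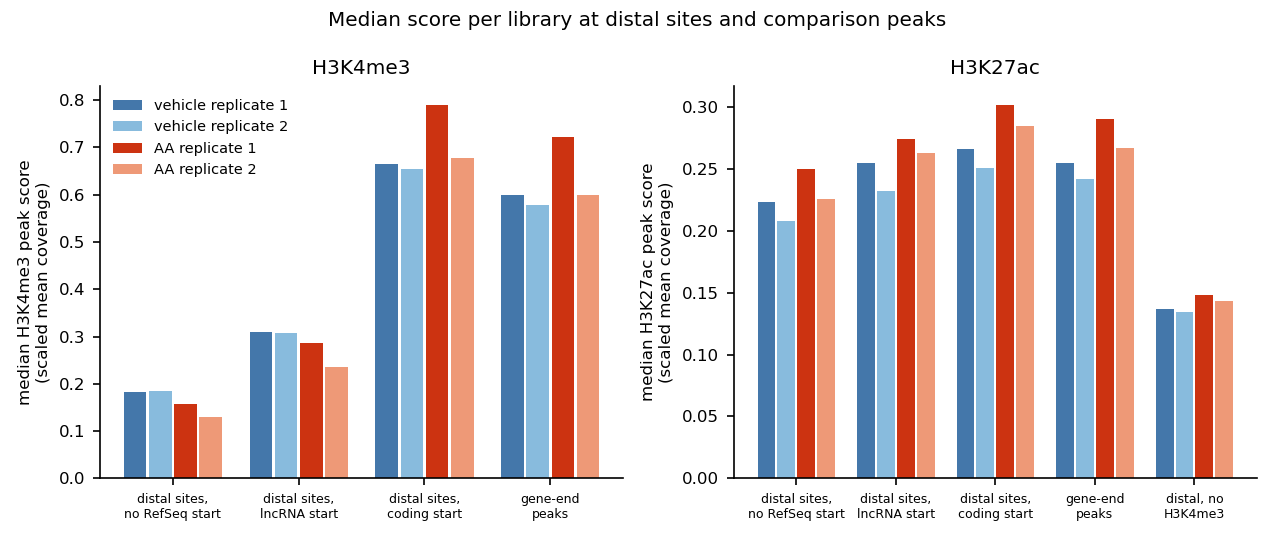
Median peak score (scaled mean coverage) in each of the 4 libraries of a mark, H3K4me3 on the left and H3K27ac on the right, for distal sites by start class and for comparison peaks. At sites without a start both AA libraries lie below both vehicle libraries in H3K4me3, while in H3K27ac both AA libraries lie above both vehicle libraries.

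The strongest H3K4me3 site lay in Denn2b, a gene of a Rab exchange factor, at chr7:109613521-109617911 over an internal start. Its scores were 1.55 and 1.35 in vehicle and 1.77 and 1.58 in AA, and it was also among the 10 strongest sites in H3K27ac (0.524 and 0.527 in vehicle, 0.632 and 0.595 in AA). Next in level came sites in Ptpn3, a tyrosine phosphatase gene, Psma6, a proteasome subunit gene, Uggt2, Rin2, Fmn1, which encodes an actin-nucleating formin, Frmd4b, Srrm2, a splicing factor gene, and Pld1, the phospholipase D gene, and a site near Slc39a11 at the start of a long non-coding RNA. These 10 sites had scores between 1.00 and 1.86 in every library. Of the 10, 7 were called as higher in AA, by 0.41 (Uggt2) to 0.57 (Slc39a11), and none as lower. Of all H3K4me3 peaks 1.54% were called as higher, and of the 5855 with the highest mean scores 10.4%. These calls depended on scaling. After quantile normalization the change was 0.09 at Uggt2 and Srrm2, 0.10 at Pld1, 0.12 at Ptpn3 and 0.13 at Fmn1. None of these was then called (limma adjusted p = 0.322 to 0.626), while Slc39a11 was, at 0.24 (limma adjusted p = 0.0157). At Ptpn3 the scores were 1.24 and 1.22 in vehicle and 1.77 and 1.62 in AA, a change of 0.46 ± 0.12 (SE, limma adjusted p = 0.0115).

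Among the strongest sites in H3K27ac were, besides Denn2b, those in or near Gtf2ird1, Ppara, Galnt6, Retreg1, Eml4, Babam2, Susd1 and Ttc7b, and none of these was called in either mark. The site near Ppara, the receptor for fatty acids that switches on their oxidation, was the longest of all at 24631 bp (chr15:85662169-85686799, 48.1 kb from the gene). Its H3K27ac scores were 0.499 and 0.593 in vehicle and 0.658 and 0.691 in AA (change 0.28 ± 0.13, limma adjusted p = 0.575), and its H3K4me3 scores 1.08 and 1.09 against 1.52 and 1.33 (change 0.38 ± 0.13, limma adjusted p = 0.0741). The groups did not overlap in either mark at this site, and neither difference passed the threshold.

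The first comparison asked how H3K4me3 differed between AA and vehicle at the sites. H3K4me3 was lower in AA at 406 sites and higher at 122. The median site score was 0.187 in vehicle replicate 1, 0.189 in vehicle replicate 2, 0.163 in AA replicate 1 and 0.134 in AA replicate 2. The median change was -0.32, and 27.4% of sites had a change above 0. By limma 2.91% of sites were called, beside 2.92% of all H3K4me3 peaks (1.54% higher and 1.38% lower in AA), and at the sites these shares were 0.672% and 2.24%. Over all H3K4me3 peaks the median change was -0.19, over gene-end peaks 0.15 and over the 26354 remaining peaks -0.31. In these bulk samples fewer cells with a mark and less of the mark per cell cannot be told apart.

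The counts depended on the libraries. Without vehicle replicate 1, and likewise without vehicle replicate 2, 2 sites were called, the same 2 (Syt16 and Tcte2, below); without AA replicate 1 there were 363 higher and 2724 lower, and without AA replicate 2 865 higher and 988 lower. Centring every library on its median, which gives all libraries of a mark the same median over all peaks, gave 590 higher and 282 lower. The excess of falls over rises among called sites thus turned. For these fits the share called over all H3K4me3 peaks was not counted. The counts therefore do not set the sites against other peaks. All 122 rises and 281 of the 406 falls were also called after centring. Centring adds the same amount to every change and moved the sites' median from -0.32 to -0.11. It could therefore only enlarge the rises, and their number after it is no check of them. After quantile normalization 101 of the 122 rises and 341 of the 406 falls were called. A fit without the trend and robust options of limma called 0 sites, with 2358 at an unadjusted p under 0.05.

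The change followed the level of the peak. With all H3K4me3 peaks divided by mean score into 10 bins of equal size, the median change at the sites went from -0.78 in the lowest bin (602 sites) through -0.36 in bin 5 and -0.26 in bin 8 to 0.23 in the highest (410 sites). Peaks that are no sites followed a like course, at -0.75, -0.24, -0.16 and 0.28 in the same bins. Called falls were most numerous in bins 7 and 8, with 124 and 170 of the 406. These were 4.03% and 6.24% of the sites there, beside 3.79% and 4.99% of all peaks. In bin 9 4.78% of sites and 2.56% of all peaks were called as lower. The highest bin held 40 of the 122 rises, and 9.76% of sites and 10.4% of all peaks there were called as higher. Depth also differed between the groups, as given above, and the part of depth in this course was not tested.

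**Figure D2:**
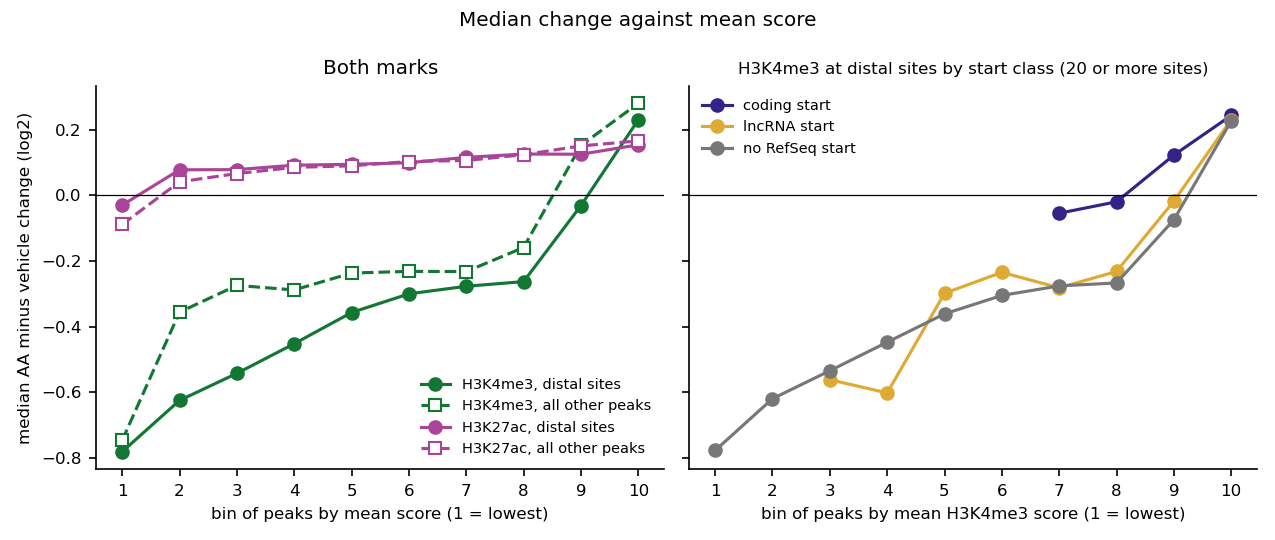
Median AA minus vehicle change (log2) in 10 equal bins of peaks by mean score, for both marks at distal sites and at all other peaks (left) and for H3K4me3 at distal sites by start class, bins with at least 20 sites (right). The H3K4me3 change at sites climbs from -0.78 to 0.23, that of H3K27ac stays between -0.03 and 0.15.

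Sites with a coding start had a higher median change than the other classes. Their median change was 0.16, 72.0% of them had a change above 0, and 22 were called as higher and 9 as lower (1.54% and 1.38% of all peaks were). At starts of long non-coding RNAs the median was -0.16, with 11 higher and 17 lower, and at sites without a start -0.34, with 86 and 369. Most of this went with the level: in the highest bin the medians were 0.24, 0.23 and 0.23 for the 3 classes, in bin 9 0.12, -0.02 and -0.07, and in bin 8 -0.02, -0.23 and -0.27. The difference between classes at one level was not tested.

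The largest rise of H3K4me3 among sites above the median level was inside Syt16, a gene of the synaptotagmin family, at chr12:74092939-74096766. The scores there were 0.0656 and 0.0293 in vehicle and 0.463 and 0.543 in AA, a change of 2.90 ± 0.41 (SE, limma adjusted p = 1.77e-09). Both AA libraries were above both vehicle libraries, which the choice of this site required, and in vehicle the site was weak. Its H3K27ac did not pass the test (0.142 and 0.0812 in vehicle, 0.154 and 0.164 in AA).

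Ereg encodes epiregulin, a ligand of the EGF receptor made by regenerating epithelium, and a site 8.06 kb from it (chr5:91101707-91102219) came next in size of rise. Its scores were 0.0677 and 0.0587 in vehicle and 0.431 and 0.206 in AA (change 1.88 ± 0.45, SE, limma adjusted p = 0.00505). Near Plac8, which encodes a small cysteine-rich protein, 2 sites rose. One, at chr5:100607921-100608788, went from 0.0808 and 0.0772 to 0.345 and 0.342 (change 1.82 ± 0.40, limma adjusted p = 0.00121), and the other from 0.0998 and 0.133 to 0.354 and 0.471 (change 1.63 ± 0.34, limma adjusted p = 0.000572). The AA libraries were apart from the vehicle libraries at all of these, which the choice of these sites required.

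At 2 of the 10 largest rises the nearest protein-coding gene end, 207 and 323 kb away, was that of a Krüppel-like factor gene. Klf5 drives proliferation in the crypt, and a site 207 kb from it had scores of 0.0320 and 0.0927 in vehicle and 0.244 and 0.300 in AA (change 1.85 ± 0.49, SE, limma adjusted p = 0.0142). A site 323 kb from Klf6 went from 0.0699 and 0.0655 to 0.352 and 0.192 (change 1.62 ± 0.47, limma adjusted p = 0.0291). The remaining 4 were in Asb13, Shroom3, an actin-binding protein gene of apical constriction, and Cyb5b, a mitochondrial cytochrome gene, and near Psmg1, a proteasome chaperone gene, with rises of 1.59 to 1.76. All 10 sites had vehicle scores of at most 0.137, under the median site of either vehicle library, so each rests on little coverage in vehicle.

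Falls were led by a site near Pid1, a gene of an adaptor that dampens insulin signalling, at chr1:84347393-84348389. The scores were 0.268 and 0.375 in vehicle and 0.00514 and 0.0561 in AA (change -2.78 ± 0.59, SE, limma adjusted p = 0.000761). A site 323 kb from Cd83, an immune surface protein gene, had 0.331 and 0.320 in vehicle and 0.0439 and 0.0152 in AA (change -2.73 ± 0.57, limma adjusted p = 0.000456). At both sites the AA libraries scored at most 0.0561.

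Inside Foxp1, a forkhead repressor gene with 26 sites, 1 site (chr6:99335944-99339995) fell from 0.342 and 0.350 to 0.0668 and 0.0462 (change -2.19 ± 0.44, SE, limma adjusted p = 0.000284). The strongest of the 10 falls in vehicle was in Frmd4a, a gene of a scaffold protein of epithelial polarity, at chr2:4517220-4518381, with 0.638 and 0.635 in vehicle and 0.117 and 0.154 in AA (change -2.05 ± 0.29, limma adjusted p = 3.64e-09). Bmp7 encodes a BMP ligand, a signal that opposes stem cell renewal in the crypt. A site inside it went from 0.473 and 0.346 to 0.134 and 0.0485 (change -1.99 ± 0.37, limma adjusted p = 5.32e-05). The others were in or near Kif20b, a mitotic kinesin gene, Sdk1, an adhesion gene, Prdm2, Pde4b, a phosphodiesterase gene that ends cAMP signals, and Snx3, a sorting nexin gene, with falls of 1.86 to 2.14 on the log2 scale. H3K27ac passed the test at none of these 10 falls or 10 rises.

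**Figure D3:**
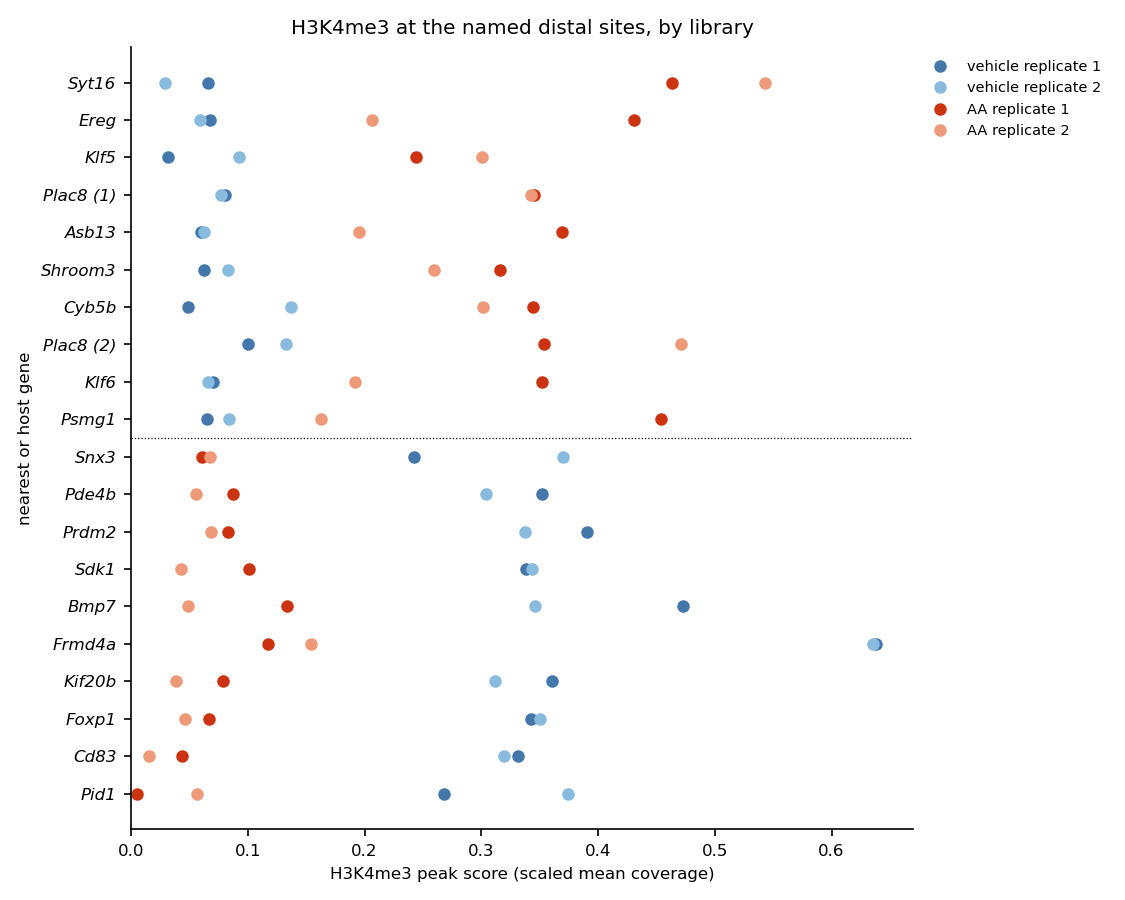
H3K4me3 peak score (scaled mean coverage) in each library at the 10 largest rises (above the dotted line) and 10 largest falls among called sites whose mean lies above the sites' median, labelled by the gene each lies in or near. The AA and vehicle points do not overlap in any row, which the choice of these sites requires.

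Several sites were called as lower at some genes, which were chosen after their values were seen. Of all sites 2.24% were called as lower, and of all H3K4me3 peaks 1.38%. Rph3al, which encodes a Rab effector of exocytosis in secretory cells, had 4 called falls among 8 sites, and Esrrg (an orphan nuclear receptor gene of oxidative metabolism), Hmga2 (a chromatin protein gene of fetal tissue), Prlr and Epb41l3 had 3 each. No gene had 3 called rises. Some of these falls are at close neighbours. In Rph3al a called site ends at 75928366 and the next starts at 75928914. In Prlr a called site ends at 10224589 and the next starts at 10225024. Whether falls gather at genes more than the number of sites would give was not tested. In Rph3al the strongest site, over an internal start (chr11:75922498-75928366), scored 1.13 and 1.13 in vehicle and 0.550 and 0.471 in AA, a change of -1.11 ± 0.17 (SE, limma adjusted p = 1.15e-07). The other 3 called sites of the gene fell by 1.15 to 1.42 on the log2 scale. In Esrrg, with 13 sites and a median change of -1.42, the strongest (chr1:188005940-188008448) went from 0.675 and 0.695 to 0.190 and 0.194 (change -1.71 ± 0.26, limma adjusted p = 8.18e-08). The genes with the most sites were Slc39a11 (41), Rad51b (37), Zfp608 (32) and Mecom, Myc and Tbc1d1 (27 each). Of these Mecom, a transcription factor gene, had a median change above 0, at 0.13 over its 27 sites, while the 27 sites around Myc had a median of -0.28 and 0 calls.

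At internal coding starts, also named after their values were seen, the rises included Il33, Capg, Slc7a11, Tjp1, Lmna and Crybg1. Il33 went from 0.332 and 0.301 in vehicle to 0.842 and 0.575 in AA (change 1.08 ± 0.23, SE, limma adjusted p = 0.000516), and Capg from 0.182 and 0.173 to 0.558 and 0.412 (change 1.31 ± 0.29, limma adjusted p = 0.00168). Both belong to the stretches printed above. Slc7a11, the cystine importer that feeds glutathione synthesis, had 0.737 and 0.741 in vehicle and 1.32 and 1.12 in AA (change 0.70 ± 0.15, limma adjusted p = 0.000928). Tjp1 encodes the tight junction protein ZO-1, and its internal start rose by 0.57 ± 0.15 (limma adjusted p = 0.0154). Lmna, the lamin A gene, rose by 0.68 ± 0.17 (limma adjusted p = 0.00769), and Crybg1 by 0.71 ± 0.13 (limma adjusted p = 3.15e-05), the latter from 0.983 and 0.909 to 1.56 and 1.56.

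The falls at internal starts included Akr1c14, Bbox1 and Prlr. Akr1c14 went from 0.863 and 0.680 in vehicle to 0.293 and 0.234 in AA (change -1.46 ± 0.23, SE, limma adjusted p = 3.32e-07). Bbox1, which encodes the last enzyme of carnitine synthesis, had 0.607 and 0.511 in vehicle and 0.321 and 0.184 in AA (change -1.11 ± 0.26, limma adjusted p = 0.00288). At the internal start of Prlr the scores were 0.263 and 0.249 against 0.0773 and 0.0637 (change -1.56 ± 0.47, limma adjusted p = 0.0372). The groups stood apart at each of these, which the choice of these sites required. No site with a RefSeq start, coding or not, was called in H3K27ac by limma, where 127 of 969 had an unadjusted p under 0.05. Of all H3K27ac peaks 0.2% were called, and of all sites 0.286%.

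The second comparison asked the same of H3K27ac. H3K27ac was higher in AA at 47 sites and lower at 5. The 47 sites lay in 45 H3K27ac peaks, because neighbouring sites near Tcte2 and in Fgd6 share one. The median site score was 0.225 in vehicle replicate 1, 0.210 in vehicle replicate 2, 0.252 in AA replicate 1 and 0.228 in AA replicate 2, and the median change was 0.12. By limma 0.286% of sites were called, beside 0.2% of all 62547 H3K27ac peaks (0.155% higher and 0.0448% lower). The median over all H3K27ac peaks was 0.11, over gene-end peaks 0.14 and over distal peaks with neither other mark 0.07. Without AA replicate 1 there were 0 calls by limma (773 at an unadjusted p under 0.05), without AA replicate 2 2, without vehicle replicate 1 21 and without vehicle replicate 2 32, and no site was called in all 4 of these fits. Quantile normalization gave 19 higher and 14 lower.

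Among the H3K27ac rises were sites near Pdk4, Fabp1 and Sqle. Pdk4 encodes the kinase that shuts off pyruvate dehydrogenase when fatty acids are burned, and is a textbook target of the PPAR receptors. At a site 13.2 kb from it (chr6:5509455-5510915), H3K27ac scored 0.177 and 0.147 in vehicle and 0.379 and 0.441 in AA, a change of 1.05 ± 0.20 (SE, limma adjusted p = 0.000929). H3K4me3 there had 0.171 and 0.234 in vehicle and 0.0708 and 0.156 in AA (change -0.77 ± 0.45, limma adjusted p = 0.384). A site 13.6 kb from Fabp1, which encodes the fatty acid-binding protein of enterocytes and hepatocytes and was named after its values were seen, went from 0.143 and 0.134 to 0.423 and 0.279 in H3K27ac (change 0.99 ± 0.24, limma adjusted p = 0.0205).

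Sqle encodes squalene epoxidase of cholesterol synthesis, and a site 6.98 kb away scored 0.132 and 0.168 in vehicle and 0.465 and 0.303 in AA (change 1.03 ± 0.22, SE, limma adjusted p = 0.00386). In Dpy19l1, a glycosyltransferase gene, H3K27ac went from 0.150 and 0.151 to 0.473 and 0.346 (change 1.11 ± 0.21, limma adjusted p = 0.000516). Inside Rhobtb1 the scores were 0.153 and 0.0803 against 0.282 and 0.423 (change 1.19 ± 0.26, limma adjusted p = 0.00479). The other named rises were near Plat, the tissue plasminogen activator gene, Tnfrsf11a, which encodes the receptor RANK, Gprin3, Tbl1xr1, a corepressor subunit gene, and Rwdd3, and in Fxr1, an RNA-binding protein gene, at 1.03 to 1.10. Near Gprin3 and Rwdd3 vehicle replicate 2 (0.277 and 0.197) was closer to AA replicate 2 (0.308 and 0.239) than to vehicle replicate 1 (0.0714 and 0.0652).

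All 5 falls of H3K27ac were at sites without a start. Near Grb2, the adaptor gene that links growth factor receptors to Ras, the scores were 0.377 and 0.411 in vehicle and 0.167 and 0.143 in AA (change -1.05 ± 0.21, SE, limma adjusted p = 0.00179). Near Gtf3a, a gene of 5S RNA transcription, they were 0.398 and 0.291 against 0.0771 and 0.156 (change -1.18 ± 0.26, limma adjusted p = 0.00697). The others were near Eepd1 and Fgf5 and in Dlgap1.

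**Figure D4:**
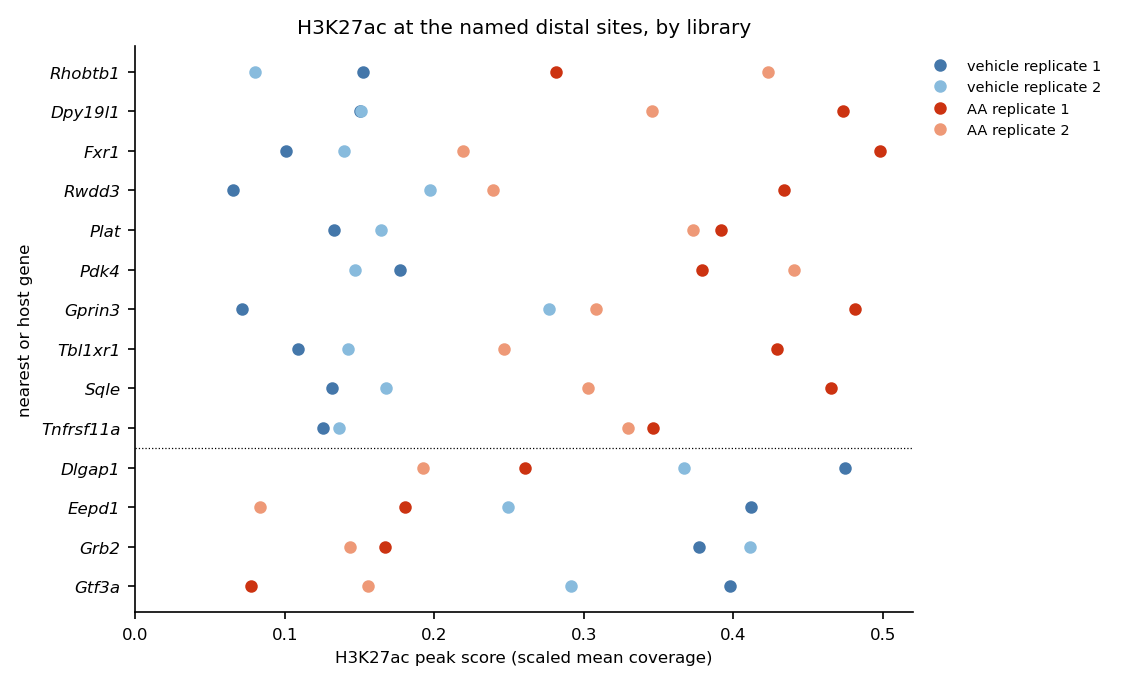
H3K27ac peak score (scaled mean coverage) in each library at the 10 largest rises (above the dotted line) and the 4 falls among called sites whose mean H3K27ac lies above the sites' median. At 8 of the 10 rises AA replicate 1 is the highest library, and at Pdk4 and Rhobtb1 AA replicate 2 is.

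The third comparison set the marks side by side. In this fit 3 sites were called in both marks, all as rises in both, and 0 in opposite directions. Without H3K4me3 AA replicate 1 there were 4 in the same and 5 in opposite directions, without H3K4me3 AA replicate 2 there were 6 and 1, and after median centring 5 and 1. Without any 1 of the H3K27ac libraries 0 to 1 sites were called in both marks, and without either H3K4me3 vehicle library 1. The strongest was near Tcte2, a gene of the mouse t-complex, at chr17:13681710-13684598. H3K4me3 there scored 0.419 and 0.414 in vehicle and 1.30 and 1.07 in AA (change 1.45 ± 0.18, SE, limma adjusted p = 2.09e-12), and H3K27ac 0.259 and 0.255 against 0.512 and 0.479 (change 0.79 ± 0.16, limma adjusted p = 0.0029). Abl2, a tyrosine kinase gene that acts on actin, held the second inside its body (chr1:156614683-156618114), with H3K4me3 at 0.416 and 0.416 against 0.917 and 0.797 (change 1.00 ± 0.20, limma adjusted p = 0.000172) and H3K27ac at 0.315 and 0.308 against 0.574 and 0.477 (change 0.64 ± 0.15, limma adjusted p = 0.0227). In Bsn, which encodes a presynaptic scaffold, the third (chr9:108144642-108147376) had H3K4me3 at 0.198 and 0.207 against 0.465 and 0.468 and H3K27ac at 0.191 and 0.198 against 0.457 and 0.376. In all 3 the groups were apart in both marks, and the vehicle libraries lay close together.

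Over all sites the signs of the 2 changes differed more often than they matched. A change above 0 was seen at 27.4% of sites in H3K4me3 and at 68.4% in H3K27ac. With such shares unlike signs outnumber like ones even if the 2 marks are unrelated. H3K4me3 was lower and H3K27ac higher in AA by sign at 8663 sites (47.7%), both were lower at 4517 (24.9%), both higher at 3760 (20.7%), and H3K4me3 was higher with H3K27ac lower at 1216 (6.70%). At the 406 sites called as lower in H3K4me3 the median H3K27ac change was 0.03, at the 122 called as higher it was 0.23, and at the 17628 not called it was 0.12. The Spearman correlation of the 2 changes over sites was 0.16. Signs depend on the scaling of each mark, and centring moves the median H3K4me3 change from -0.32 to -0.11 and that of H3K27ac from 0.12 to 0.05.

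**Figure D5:**
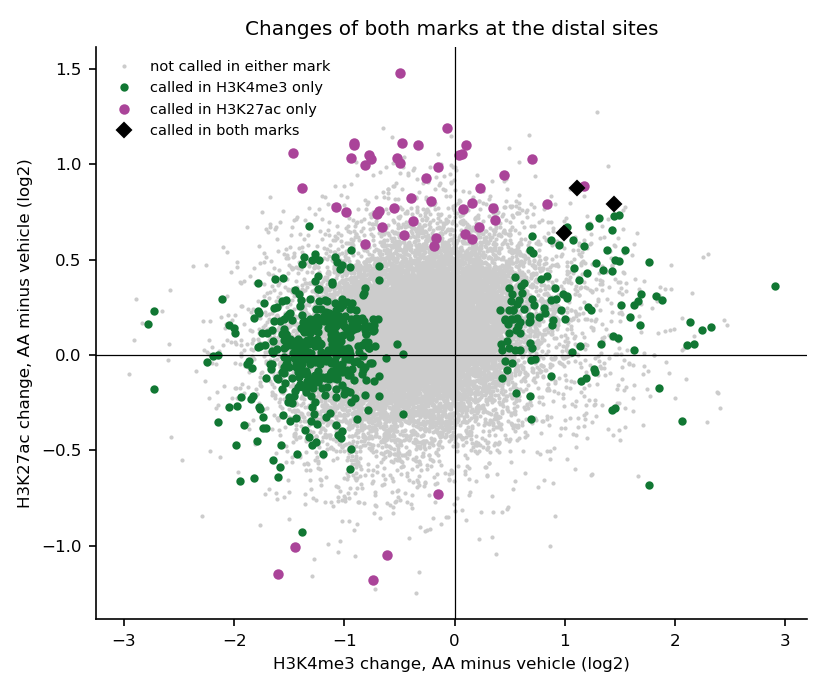
AA minus vehicle change (log2) of H3K4me3 (x axis) and H3K27ac (y axis) at each of the 18156 sites, with called sites in colour. The 3 sites called in both marks (black) lie at the upper right, and most sites called in H3K4me3 lie at the left, near 0 in H3K27ac.

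A direct test of the difference between the marks, fitted over 8 libraries, called 2 sites, both with a lower AA effect in H3K4me3, beside 0.0269% of all 33489 pairs of overlapping peaks. One was the internal start of Rph3al given above, with a difference of -1.50 ± 0.20 (SE, limma adjusted p = 0.0185) and H3K27ac at 0.271 and 0.310 in vehicle and 0.400 and 0.398 in AA. The other (chr5:75251413-75255486) lies 53.2 kb from Pdgfra, the PDGF receptor gene of mesenchymal cells. H3K4me3 there went from 0.813 and 0.728 to 0.330 and 0.226 and H3K27ac was 0.271 and 0.260 against 0.362 and 0.336, a difference of -1.73 ± 0.27 (SE, limma adjusted p = 0.0412). With H3K4me3 vehicle replicate 1 or vehicle replicate 2 left out there were 0 calls, and with H3K4me3 AA replicate 1 left out 1935.

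Sites near genes of the intestinal epithelium were then described by 10 lists of genes, assigned by position. Some lists share genes. Myc, for example, brings its 27 sites to both the crypt stem cell and the Wnt target list, so these medians are not independent. Over all sites the median H3K4me3 change was -0.32, with 0.672% called as higher and 2.24% as lower, beside 1.54% and 1.38% of all peaks. Around crypt stem cell genes there were 127 sites (17 of 19 genes) with a median of -0.47, 0 called as higher and 4 (3.15%) as lower. The latter were near Lrig1 (2 sites), which encodes a brake on EGF receptor signalling in stem cells, Rgmb and Cdk6, the cell cycle kinase gene. The stronger fall near Lrig1 (chr6:94812486-94819339) went from 0.342 and 0.444 to 0.161 and 0.135 (change -1.26 ± 0.33, SE, limma adjusted p = 0.0109). H3K27ac was called at 0 of the 127 by limma (7 at an unadjusted p under 0.05).

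Around enterocyte genes, 44 sites of 18 genes had a median H3K4me3 change of -0.54, with 0 higher and 2 (4.55%) lower, near Slc5a1, the glucose transporter gene SGLT1 (change -1.40 ± 0.41, SE, limma adjusted p = 0.0317), and near Mep1b, a brush border protease gene (change -1.16 ± 0.34, limma adjusted p = 0.0339). In H3K27ac 1 was called, the Fabp1 site. Secretory and enteroendocrine genes had 23 sites and 0 calls in H3K4me3 by limma (2 at an unadjusted p under 0.05). In H3K27ac 1 rose, 3.17 kb from Agr2, which encodes a disulfide isomerase of goblet cells, from 0.377 and 0.317 to 0.575 and 0.574 (change 0.63 ± 0.15, limma adjusted p = 0.0149).

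Fetal-like genes, those of the state the epithelium enters on injury, had 41 sites with a median H3K4me3 change of -0.24, of which 2 rose, at Ereg and Il33, and 0 fell. The YAP and TEAD list had 57 sites, a median of -0.27 and 1 fall, in Tead1. Genes of intestinal transcription factors had 153 sites (25 of 29 genes), a median of -0.32, 2 rises and 1 fall. The rises were near Klf5 and inside Hnf4g, a nuclear receptor of enterocytes, whose site (chr3:3633016-3639690) went from 0.372 and 0.316 to 0.657 and 0.652 (change 0.88 ± 0.22, SE, limma adjusted p = 0.0093). The fall was near Klf4, a factor of differentiated cells, from 0.461 and 0.384 to 0.241 and 0.117 (change -1.20 ± 0.31, limma adjusted p = 0.0106).

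Genes of PPAR signalling and fatty acid oxidation had 64 sites with a median H3K4me3 change of -0.27 and 1 fall, near Ppargc1a, the coactivator gene of mitochondrial biogenesis (0.377 and 0.412 in vehicle, 0.183 and 0.152 in AA). In H3K27ac 2 of the 64 rose, near Pdk4 and Fabp1, beside 0.155% of all peaks, and the median was 0.15. The 53 sites around genes that release arachidonate and make prostaglandins had a median H3K4me3 change of -0.30 and 0 calls in either mark by limma, with 7 and 4 at an unadjusted p under 0.05. Wnt targets had 107 sites, a median of -0.42 and 2 rises, both near Ccnd1, the cyclin D1 gene, at 1.00 ± 0.30 and 1.69 ± 0.48 (SE, limma adjusted p = 0.0375 and 0.0234). Adhesion and cytoskeleton genes had 78 sites, a median of -0.28 and 1 rise in each mark, H3K4me3 in Tjp1 and H3K27ac near Ezr, which encodes ezrin of the microvilli. Only a few sites per list were called, and whether a list differed from the other sites was not tested.

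The rule has a distance threshold. The 5 sites just inside it lay 3002 to 3003 bp from a gene end and had H3K4me3 changes between -0.47 and 0.56, and the 5 peaks just outside it lay at 2994 to 2998 bp with changes between -0.44 and 0.50. Peaks of a second caller, MACS2, overlapped 8983 sites (49.5%) in H3K4me3, 3518 (19.4%) in H3K27ac and 3060 in both. With MACS2 peaks as the set for both marks, 3763 sites met the rule. Of these 53 rose and 25 fell in H3K4me3, so that rises outnumbered falls. In H3K27ac 0 were called by limma (240 at an unadjusted p under 0.05). The share called over all MACS2 peaks was not counted, so these calls do not set the sites against other peaks. Among the 3060, a subset chosen after the data were seen, 39 rose and 143 fell in H3K4me3 and 18 rose and 1 fell in H3K27ac.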

How the data were processed

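CUT&RUN for H3K4me3, H3K27ac and H3K27me3 was read from 12 libraries of mouse intestinal organoids, 2 per mark and group; groups came from the titles, and table rows called control were read as vehicle because no other group of the mark remained. The deposited signal is 1 peak score per peak and library, for peaks that the authors called with SEACR and MACS2 on mm10, per the submitters' processing notes; no version, aligner or scaling method is given in the sources used here. Multiplied by peak length, nearly all scores below 1000 steps came out as whole steps of a size fixed for each library (within 0.1 step, 99.99% or more), so score over step was used as unscaled coverage; no interval was computed from it.

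SEACR peaks were the main set. Distances and gene bodies used 21883 protein-coding genes of RefSeq on GRCm38.p6, 1 bp counted as overlap. Tests were limma 3.58.1 in R 4.3.3 (trend, robust) on log2(score + pseudocount), over all peaks of a mark, with Benjamini-Hochberg adjustment at 0.05. The pseudocount, the 5th percentile of positive scores, was 0.0253 for H3K4me3 and 0.0694 for H3K27ac, and understates changes of weak peaks. The difference between marks was fitted over 8 libraries on each H3K4me3 peak and the H3K27ac peak it overlaps by the most bases. The test was tried on simulated data. Named sites are, per mark, the 10 largest rises and falls among called sites with groups apart and a mean above the sites' median, sites called in both marks, the 10 strongest per mark, up to 4 sites per gene list and the 10 genes with most sites, without predicted genes; others are said to be chosen after their values were seen. The sites, lists and this rule were chosen with earlier results of these data known. No genome was used, so motifs were searched in RefSeq start windows only, and those of chromosome 18 were not used.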

Additional observations from a re-analysis of the deposited data

Results flagged for a closer look

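The AA effect on H3K4me3 differed from that on H3K27ac at 2 of the 18156 sites by the test of the difference itself (limma over 8 libraries). Of all 33489 pairs of overlapping peaks 0.0269% were called by this test. With a replicate block, without trend and robust, or at a threshold of 0.01, 0 sites were called. At the internal start of Rph3al the effect on H3K4me3 minus that on H3K27ac was -1.50 on the log2 scale, and at the site near Pdgfra it was -1.73. In both, H3K4me3 was lower in both AA libraries than in both vehicle libraries, and H3K27ac was higher in both. With H3K4me3 vehicle replicate 1 or vehicle replicate 2 left out neither was called. H3K4me3 libraries of the AA group were the shallower ones, and the part of depth in these differences was not tested.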

How the results depend on the processing

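With MACS2 peaks in place of SEACR peaks there were 3763 sites. H3K4me3 calls numbered 78 (53 higher, 25 lower) with a median change of -0.17. H3K27ac calls by limma numbered 0 (240 at an unadjusted p under 0.05) with a median of 0.26. Shares called over all MACS2 peaks were not counted. Sites that also overlap MACS2 peaks in both marks, an alternative added after the data were seen, had 182 H3K4me3 and 19 H3K27ac calls. Other distances, a 50% overlap and the ends of all RefSeq genes kept the number of sites and the calls of each mark within 1.5 times; they were not run for calls in both marks or between marks. Median centring gave 872 H3K4me3 calls with a median of -0.11, an H3K27ac median of 0.048, 6 sites called in both marks and 1 that differed between marks. Quantile normalization gave 803 H3K4me3 calls (234 higher, 569 lower; median -0.12), 33 H3K27ac calls (median 0.023) and 4 sites that differed between marks. A pseudocount 4 times lower left 1 such site, and one 4 times higher 13. Keeping the strongest 75% of peaks left 0 H3K27ac calls (1503 at an unadjusted p under 0.05) and 0 sites called in both marks. Without trend and robust limma called 0 sites in H3K4me3, in H3K27ac, in both marks and between marks (2358, 674 and 3655 at an unadjusted p under 0.05 in the single tests). At a threshold of 0.01 there were 153 H3K4me3 calls, 15 H3K27ac calls, 1 site in both marks and 0 between marks.

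Leaving out 1 library at a time, where the lone library of a group is assumed to vary like the others, gave 2 to 3087 H3K4me3 calls (median -0.44 to -0.18), 0 to 32 H3K27ac calls (median 0.07 to 0.17), 0 to 9 sites called in both marks and 0 to 1935 between marks. Same-numbered libraries did not deviate together (correlations -0.0023 in H3K4me3 and 0.0085 in H3K27ac), so the numbers were not taken to pair them. The replicate block gave 613 H3K4me3 calls, 118 H3K27ac calls (110 higher, 8 lower), 3 sites in both marks and 0 between marks (3145 at an unadjusted p under 0.05). Of the named called sites none changed sign under any alternative run. For the fits without 1 library this follows wherever the groups do not overlap, which the choice of some of these sites required. The cause of these differences was not tested, and with a median coverage of 1.37 to 3.38 in H3K4me3 a weak site rests on few fragments.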
